A study of Rattus norvegicus with 8 samples.

Results

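Genes of the renin-angiotensin and mineralocorticoid pathway were examined in total RNA of the sinoatrial node, where the heartbeat starts. The rats were Dahl salt-sensitive rats (SS/JrHsdMcwiCrl), which become hypertensive when fed much salt. The genes were chosen by their known role in the pathway, with earlier results of these data known, as 5 Ensembl identifiers: Ace, Agt, Agtr1a, Nr3c2 and Sgk1. Of the 32285 identifiers in the count table, 4 belonged to the set, and Ace (ENSRNOG00000062101) was not analysed here. Control rats (4 libraries) were given 0.4% NaCl in the diet and HFpEF rats (4 libraries), a model of heart failure in which the ejection fraction is preserved, were given 8% NaCl, each for 11 weeks. Both groups are of this inbred salt-sensitive strain, and no group ate 8% NaCl without the disease model or came from a salt-resistant strain, so salt intake, raised blood pressure and heart failure cannot be told apart. The rats' age and sex, and whether each library came from its own animal, are not stated in the labels. The p-values therefore reflect library-to-library spread, which may be partly technical.

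In the renin-angiotensin system, renin cuts angiotensinogen, the product of Agt, to angiotensin I, which angiotensin-converting enzyme (Ace) turns into angiotensin II. Angiotensin II acts mainly through the AT1 receptor, a G protein-coupled receptor that rodents encode in a pair of genes, Agtr1a and Agtr1b, and it also drives aldosterone release from the adrenal gland. Aldosterone binds the mineralocorticoid receptor (Nr3c2), a nuclear receptor that also binds glucocorticoids, and Sgk1, a serum- and glucocorticoid-regulated kinase that raises sodium channel abundance and activity, is a classic target of both corticosteroid receptors. In the heart these pathways are known for their links to fibrosis, hypertrophy and electrical remodelling.

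Total expected counts ran from 31774820 to 38889395 per library. Levels are given as CPM, a count relative to the library total, after TMM scaling, which corrects for a few abundant genes taking up reads. HFpEF replicate 2 had the fewest counts and lay farthest from Control on the first principal component of all tested genes. Markers that would check the tissue, and the mix of cell types in it, could not be matched to identifiers, so the labelled tissue was not checked here. In whole tissue, a change in the number of cells of a type and a change in RNA per cell cannot be told apart, which holds for every value below.

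All 4 measured genes passed the filter on low counts. In HFpEF the angiotensin receptor gene Agtr1a stood at 2.08 times its Control level and the kinase gene Sgk1 at 1.53 times. The mineralocorticoid receptor gene Nr3c2 stood at 0.805 times its Control level and Agt at 0.872 times. After adjustment over the 16313 tested genes, 0 of the 4 passed a threshold of 0.05 by edgeR's quasi-likelihood test, where 1.94% of all tested genes passed it (1.54% higher and 0.398% lower in HFpEF). The count was also 0 by limma-voom, where 220 of the 16313 tested genes passed. The count was 2 by DESeq2, which called Agtr1a and Sgk1 and passed 7.66% of the genes to which it gave an adjusted p. With edgeR and the replicate number as a block it was again 0, where 0.0368% of tested genes passed. At an unadjusted p under 0.05, edgeR gave 3 of the 4 (Agtr1a, Nr3c2 and Sgk1), where the background was 19.6% of all tested genes. The groups did not overlap in 2 of the 4, Agtr1a (higher in HFpEF, as in 6.74% of tested genes) and Nr3c2 (lower, as in 5.73%), against 12.5% in either direction. With 4 genes, and genes picked with earlier results of these data known, neither count was tested against its background. The median size of the log2 fold change, sign aside, was 0.46 over the 4 genes and 0.13 over all tested genes. The same limits hold for these medians, which were not compared by a test.

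**Figure D1:**
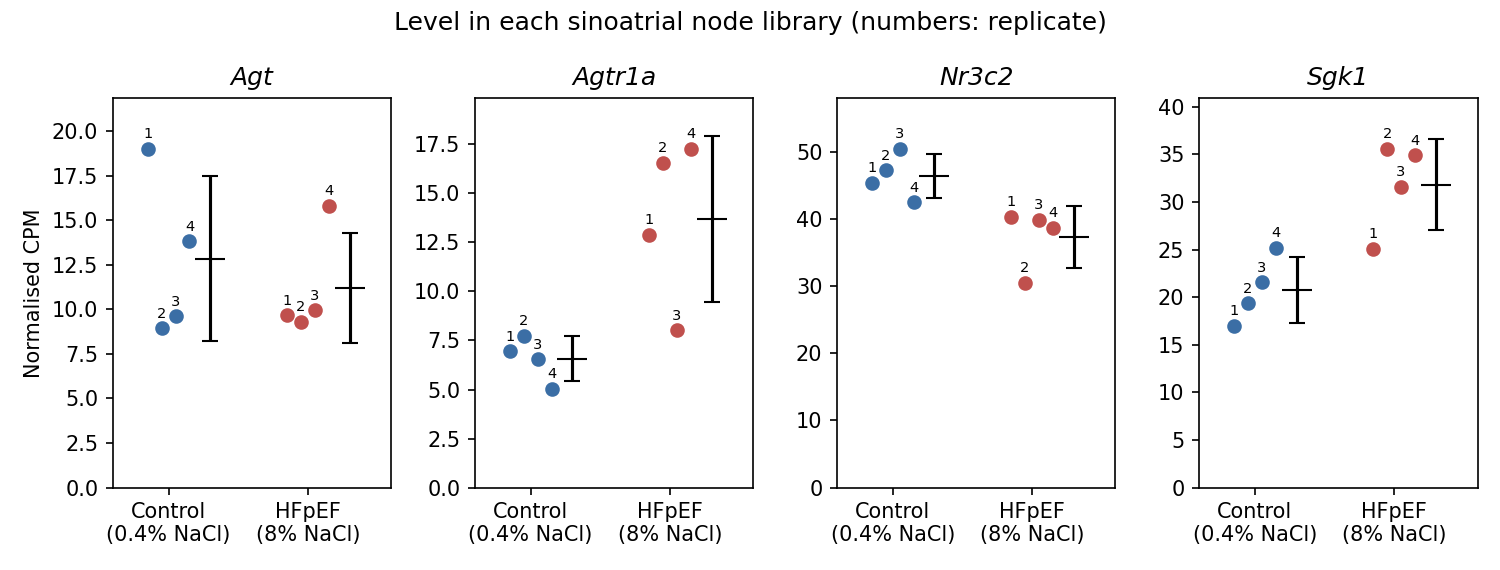
Normalised CPM (y axis, from 0, a separate scale per gene) of Agt, Agtr1a, Nr3c2 and Sgk1 in each library, with Control libraries in blue and HFpEF libraries in red and numbers giving the replicate. Black marks show the mean and SD of 4 libraries; the groups are apart in Agtr1a and Nr3c2, touch at about 25 CPM in Sgk1 and overlap widely in Agt.

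Agt (ENSRNOG00000018445) encodes angiotensinogen, the precursor of all angiotensin peptides. Its level was 19.0, 8.94, 9.62 and 13.8 CPM in Control replicates 1 to 4 and 9.68, 9.29, 9.96 and 15.8 CPM in HFpEF replicates 1 to 4. Control replicates 1 and 4 and HFpEF replicate 4 were high, the other 5 libraries lay close together, and the groups overlapped. Control averaged 12.8 ± 4.64 CPM and HFpEF 11.2 ± 3.10 CPM (SD, n = 4 each). The log2 fold change was -0.20 (edgeR adjusted p = 0.729), with a standard error of 0.26 and a 95% interval of -0.80 to 0.40. These libraries therefore leave room for anything from 0.576 to 1.32 times the Control level. Without Control replicate 1 the sign turned, to 0.052 on the log2 scale (edgeR adjusted p = 0.941).

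Agt varied within the groups far more than most genes of its abundance. The SD of its log2 CPM among Control libraries was 0.50, larger than that of 97.6% of the 5038 tested genes within 2-fold of its mean level, whose median was 0.11. Among HFpEF libraries it was 0.36, larger than that of 89.4% of them. The exact 95% Poisson interval of Control replicate 1 was 17.6 to 20.5 CPM and that of Control replicate 2 was 8.01 to 9.96 CPM. Such intervals cover counting error only. The deposited values carry no molecular identifiers, so repeated reads of the same molecule cannot be told apart and the intervals may be too narrow.

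Agtr1a (ENSRNOG00000018346) encodes the AT1a receptor, through which angiotensin II constricts vessels and promotes growth and matrix production. Its level was 6.96, 7.74, 6.55 and 5.04 CPM in Control replicates 1 to 4 and 12.9, 16.6, 8.02 and 17.3 CPM in HFpEF replicates 1 to 4. Every HFpEF library lay above every Control library, 3 of them well apart, while HFpEF replicate 3 lay just above the highest Control library. Control averaged 6.57 ± 1.13 CPM and HFpEF 13.7 ± 4.24 CPM (SD, n = 4 each). The log2 fold change was 1.06 with a standard error of 0.24 and a 95% interval of 0.53 to 1.59, which is 1.44 to 3.01 times the Control level. Its adjusted p missed the threshold (edgeR adjusted p = 0.0583, unadjusted p = 0.00149), and the gene ranked 416 by p among those tested. A log2 difference of this size or larger, in either direction, was seen in 3.54% of tested genes.

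The spread of Agtr1a was widest in HFpEF. The SD of its log2 CPM was 0.51 among HFpEF libraries, above that of 94.6% of the 4848 genes within 2-fold of its mean level, and 0.26 among Control libraries. The gap between HFpEF replicate 3 and Control replicate 2 was within counting error, with exact 95% Poisson intervals of 7.08 to 9.05 CPM and 6.87 to 8.68 CPM. Without HFpEF replicate 3, the HFpEF library nearest to Control, the log2 fold change was 1.24 and the gene passed the threshold (edgeR adjusted p = 0.0230). With any other single library left out it did not pass by edgeR. Agtr1a was also the only one of the 4 genes with counts that were not whole (within 0.005), in 2 of the 8 libraries (180.98 in Control replicate 4 and 264.98 in HFpEF replicate 3). RSEM gives such values where reads fit more than 1 gene, as can happen between Agtr1a and its close relative Agtr1b, whose own row could not be identified. These 2 values lay within 0.02 of a whole number, so little of the count was shared out in fractions, but reads assigned whole to 1 copy would not show this way.

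Nr3c2 (ENSRNOG00000034007) encodes the mineralocorticoid receptor, which binds aldosterone and glucocorticoids and acts on DNA. Its level was 45.4, 47.2, 50.4 and 42.5 CPM in Control replicates 1 to 4 and 40.3, 30.5, 39.8 and 38.7 CPM in HFpEF replicates 1 to 4. All HFpEF libraries lay below all Control libraries, 3 of them close to one another, and HFpEF replicate 2 lay well below the rest. Control averaged 46.4 ± 3.33 CPM and HFpEF 37.3 ± 4.60 CPM (SD, n = 4 each). The log2 fold change was -0.31 with a standard error of 0.10 and a 95% interval of -0.53 to -0.10 (edgeR adjusted p = 0.130, unadjusted p = 0.00966). Without HFpEF replicate 2 it was -0.22 (edgeR adjusted p = 0.150). Nr3c2 had the smallest relative spread of the 4 genes, with a coefficient of variation of 7.17% in Control and 12.3% in HFpEF. Against the 4423 genes within 2-fold of its mean level its spread was not small. The SD of its log2 CPM was above that of 66.6% of them in Control and 76.8% in HFpEF. A log2 difference at least as large was seen in 22.1% of tested genes.

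Sgk1 (ENSRNOG00000011815) encodes a kinase whose transcript is induced quickly by corticosteroids, serum and cell stress. Its level was 17.0, 19.4, 21.6 and 25.2 CPM in Control replicates 1 to 4 and 25.1, 35.6, 31.6 and 34.9 CPM in HFpEF replicates 1 to 4. The other 3 HFpEF libraries lay above all Control libraries, and HFpEF replicate 1 lay level with Control replicate 4, so that the groups met at that pair. Control averaged 20.8 ± 3.48 CPM and HFpEF 31.8 ± 4.79 CPM (SD, n = 4 each). The log2 fold change was 0.61 with a standard error of 0.14 and a 95% interval of 0.29 to 0.93, or 1.23 to 1.91 times the Control level (edgeR adjusted p = 0.0646, unadjusted p = 0.00191). Without HFpEF replicate 1, the HFpEF library nearest to Control, the log2 fold change was 0.71 and the gene passed the threshold (edgeR adjusted p = 0.0383). With any other single library left out it did not pass by edgeR. Among Control libraries its log2 SD of 0.24 was above that of 92.2% of the 5103 genes within 2-fold of its mean level.

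**Figure D2:**
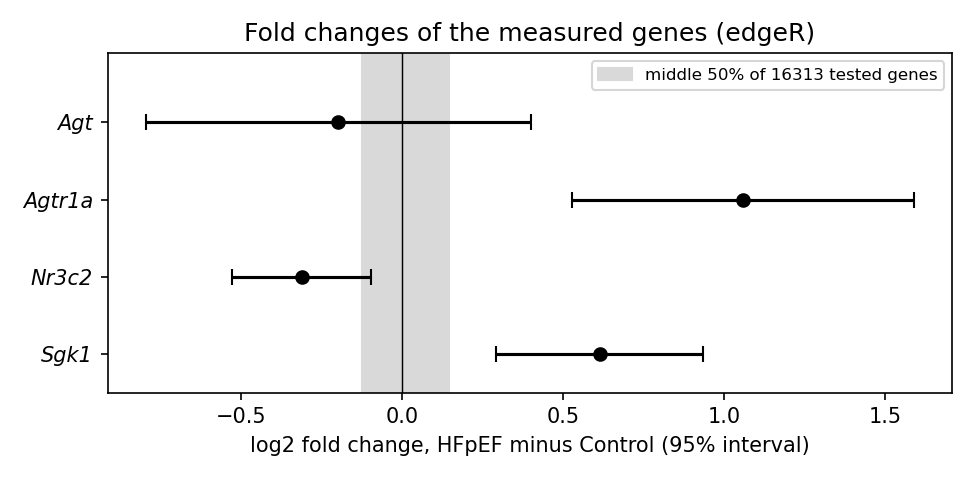
Log2 fold change of HFpEF minus Control (x axis) for the 4 measured genes, as points with 95% intervals from edgeR, beside the middle 50% of all 16313 tested genes in grey. The intervals of Agtr1a (0.53 to 1.59) and Sgk1 (0.29 to 0.93) lie to the right of the grey band, that of Nr3c2 (-0.53 to -0.10) lies below 0 and meets the band, and that of Agt (-0.80 to 0.40) spans it. The intervals are not adjusted for the number of genes tested.

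Agtr1a and Sgk1, the genes with the largest differences, are shown here by the 250 bases upstream of their RefSeq start sites, so that the sequence around each start can be read beside the values. The sequences are from RefSeq on build GRCr8, which differs from the rn6 build of the counts, and are written 5′ to 3′ along each gene's strand, with TATAAA, the core of a TATA box, in capitals. RefSeq windows were matched by symbol for 3 of the 5 genes, with 1 window for Agtr1a and 3 for Sgk1. Agtr1a lies at chr17:34435433-34435682 on the minus strand. The Sgk1 starts shown lie at chr1:24804832-24805081 (start 1) and chr1:24807232-24807481 (start 3), both on the minus strand.
Agtr1a: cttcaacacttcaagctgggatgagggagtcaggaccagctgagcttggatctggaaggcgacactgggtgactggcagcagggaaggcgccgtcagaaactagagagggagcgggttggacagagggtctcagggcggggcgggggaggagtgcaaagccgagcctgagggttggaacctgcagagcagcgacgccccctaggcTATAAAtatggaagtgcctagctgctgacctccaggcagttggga
Sgk1, start 1: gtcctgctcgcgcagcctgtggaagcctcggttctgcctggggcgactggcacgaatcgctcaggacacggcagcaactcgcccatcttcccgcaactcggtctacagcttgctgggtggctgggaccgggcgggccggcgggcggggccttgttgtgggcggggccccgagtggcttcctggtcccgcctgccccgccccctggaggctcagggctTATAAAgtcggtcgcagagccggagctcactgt
Sgk1, start 3: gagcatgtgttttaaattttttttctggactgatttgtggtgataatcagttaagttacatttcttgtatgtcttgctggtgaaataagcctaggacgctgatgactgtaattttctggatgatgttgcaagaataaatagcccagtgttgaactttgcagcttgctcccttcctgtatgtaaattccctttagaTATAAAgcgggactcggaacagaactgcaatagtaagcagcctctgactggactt
TATAAA began 45 bases before the start of Agtr1a, 33 bases before Sgk1 start 1 and 55 bases before Sgk1 start 3, and was not in the window of Sgk1 start 2. Of all 33469 RefSeq windows of the same 300 bases, 14.2% held TATAAA on either strand. The full corticosteroid receptor element (AGAACA, a spacer of 3 bases, then AGAACA on the opposite strand), its half-site AGAACA and the CCAAT box (CCAAT) were searched on both strands and had no match in the Agtr1a window or in any of the 3 Sgk1 windows. They occurred in 0.0149%, 20.7% and 37.5% of all windows, and every full element also counts as a half-site. A match or its absence describes these letters only, and the counts do not show which Sgk1 start was used.

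Ratios taken within a library do not depend on how libraries are scaled, and gene length cancels when 1 ratio is compared between libraries. The ratio of Sgk1, a classic target of both corticosteroid receptors, to the receptor gene Nr3c2 was 0.375, 0.410, 0.428 and 0.593 in Control replicates 1 to 4. In HFpEF replicates 1 to 4 it was 0.623, 1.17, 0.794 and 0.903. All 4 HFpEF libraries were above all 4 Control libraries, and the ratio averaged 0.452 ± 0.0969 for Control and 0.872 ± 0.228 for HFpEF (SD, n = 4 each). The ratio of Agtr1a to Agt, receptor transcript over ligand precursor transcript, was 0.366, 0.865, 0.681 and 0.364 in Control replicates 1 to 4 and 1.33, 1.78, 0.805 and 1.09 in HFpEF replicates 1 to 4. HFpEF replicate 3 lay below Control replicate 2, and the other 3 HFpEF libraries lay above all Control libraries. Both ratios were chosen after the values were seen and carry no test. Each puts a gene with a higher HFpEF mean over a gene with a lower one, so a higher ratio in HFpEF follows from those values. How many other pairs of genes separate the groups this way was not counted. Whether Nr3c2 acts on Sgk1 in this tissue was not tested.

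**Figure D3:**
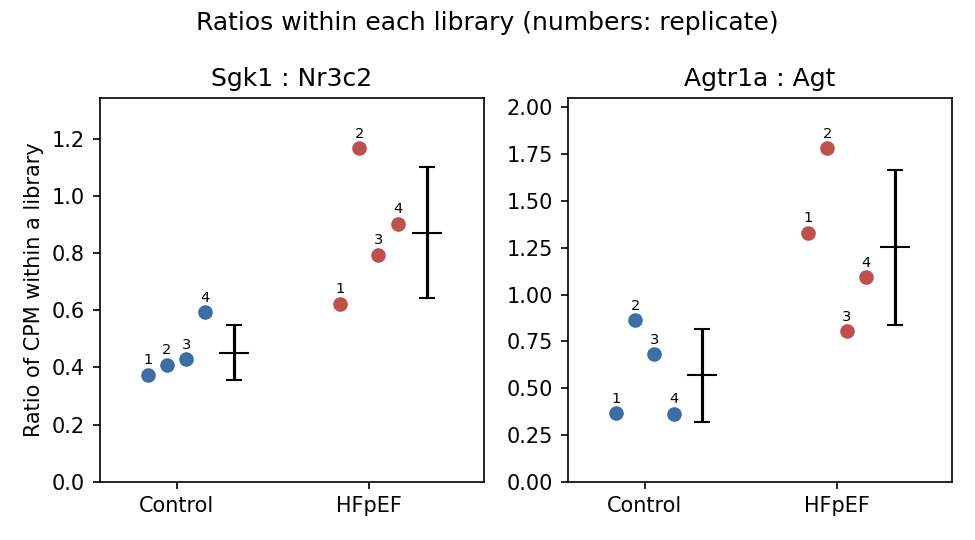
Ratio of Sgk1 to Nr3c2 CPM (left) and of Agtr1a to Agt CPM (right) within each library, on y axes from 0, with Control in blue, HFpEF in red and numbers giving the replicate. Black marks show the mean and SD of 4 libraries; the Sgk1 to Nr3c2 ratio ran from 0.375 to 0.593 in Control and from 0.623 to 1.17 in HFpEF.

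The libraries that stood highest or lowest differed from gene to gene. HFpEF replicate 2 had the highest Sgk1, the lowest Nr3c2 and the second highest Agtr1a, while its Agt was the lowest of its group. HFpEF replicate 4 was highest in Agtr1a and was the HFpEF library with the most Agt. HFpEF replicate 1, nearest to Control in Sgk1, and HFpEF replicate 3, nearest to Control in Agtr1a, were not the same library. Control replicate 4 had the lowest Agtr1a and Nr3c2 of its group and the highest Sgk1.

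**Figure D4:**
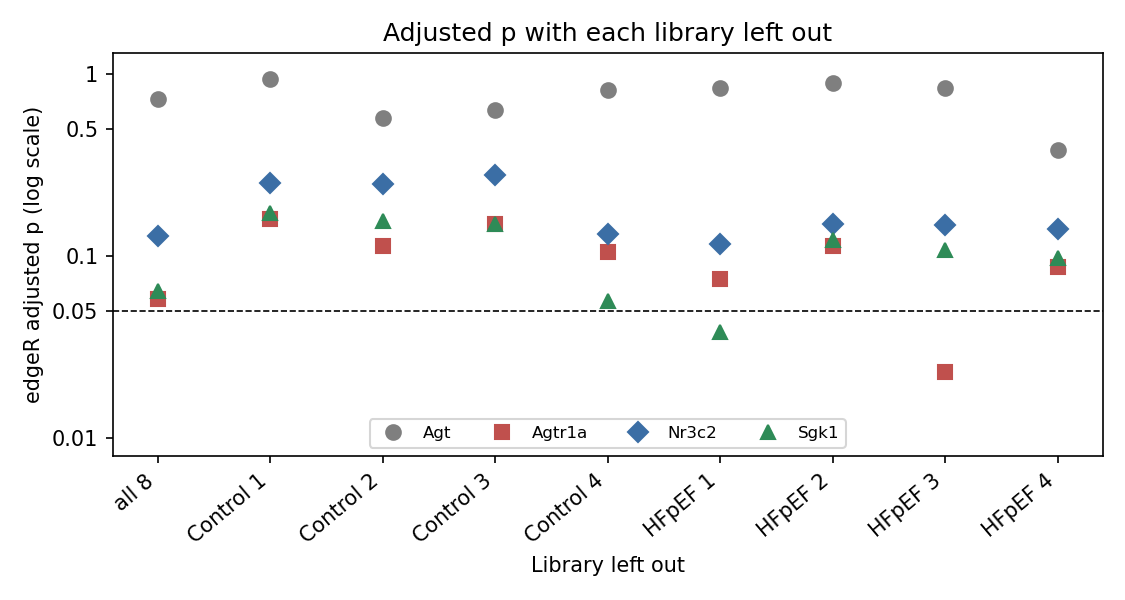
Benjamini-Hochberg adjusted p from edgeR (y axis, log scale) of the 4 genes with all 8 libraries and with each library left out in turn (x axis), with a dashed line at the threshold of 0.05. Agtr1a passes without HFpEF replicate 3 (0.0230) and Sgk1 without HFpEF replicate 1 (0.0383), and no other point lies below the line.

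The adjusted p of Agtr1a ran from 0.0230 to 0.160 and that of Sgk1 from 0.0383 to 0.172 when each library was left out in turn (edgeR). Leaving out Control replicate 1 gave the highest adjusted p for both, in a fit where 22 of all tested genes passed the threshold. The log2 fold change of Agtr1a was then 1.09 (edgeR unadjusted p = 0.00411). The highest unadjusted p by edgeR came without Control replicate 4 for Agtr1a (0.00493) and without Control replicate 2 for Sgk1 (0.00713). The log2 fold change stayed between 0.93 and 1.24 for Agtr1a and between 0.53 and 0.72 for Sgk1.

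The gene whose log2 CPM followed each of the 4 most closely over the 8 libraries was looked up among 14305 genes with a mean of at least 1 CPM. These correlations are a description, since all points share the same 8 libraries and the same group difference. Each gene was picked for the highest r, so a high r and a similar group difference tend to follow from the choice. Agtr1a was followed most closely by ENSRNOG00000019142 (Pearson r = 0.991, and 0.979 for deviations from the group means), with a Control level of 3.73 ± 0.329 CPM and an HFpEF level of 5.75 ± 0.973 CPM (SD, n = 4 each). Sgk1 was followed by ENSRNOG00000015420 (r = 0.968, and 0.890 for deviations), which rose to 43.6 ± 5.15 CPM over a Control level of 32.1 ± 2.08 CPM (SD over 4 libraries; edgeR adjusted p = 0.0486). Nr3c2 was followed by ENSRNOG00000013865 (r = 0.988, and 0.971 for deviations), at 19.2 ± 0.990 CPM in Control and 16.4 ± 1.51 CPM in HFpEF. For Agt the highest r was that of ENSRNOG00000003673 (r = 0.895, and 0.951 for deviations), with 6.75 ± 0.307 and 6.44 ± 0.223 CPM. The edgeR adjusted p was 0.0633 for the gene closest to Agtr1a, 0.163 for that closest to Nr3c2 and 0.683 for that closest to Agt. These identifiers are not paired with names in the files.

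Other genes of the pathway (renin, the remaining angiotensin receptors, aldosterone-handling enzymes, further corticosteroid target genes and SGK family members) were listed by symbol but could not be matched to identifiers, and are not reported here.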

How the data were processed

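The authors deposited RSEM expected counts per gene, unnormalized, as 1 table of 8 libraries. Bowtie2 2.1.0, RSEM 1.2.15 and build rn6 are named per the submitters' processing notes. The annotation release and whether counting used strand are not given in the sources at hand, so reads of overlapping or antisense genes may not have been told apart. Ribosomal RNA was depleted per the labels' protocols. Symbols of the 5 genes came with the list of members; the reference table held no Ensembl identifiers, so lists of pathway and marker genes, and set counts on them, were not run.

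Expected counts were rounded. Genes kept by filterByExpr (16313, 99.95% of counts) were TMM-scaled and compared in edgeR 4.0.16 (R 4.3.3) by the quasi-likelihood test, two-sided, Benjamini-Hochberg over all tested genes, threshold 0.05. Standard errors came from the F statistic. Log2 CPM used a prior count of 2. The script was tested on simulated counts. A count of 0 allows up to 3 counts (0.0786 to 0.0948 CPM). Between libraries of 1 group, chi-square over its degrees of freedom was 18.3 to 82.4, so none was a copy of another. As alternatives, limma-voom (limma 3.58.1), DESeq2 1.42.0, RLE and upper quartile scaling, 2 filters, a replicate block, robust dispersion, a threshold of 0.1 and each library left out were run.

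Named genes were the members and, for each, the most alike genes by Pearson r (the closest is printed). Members and lists were chosen with earlier results of these data known.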

Additional observations from a re-analysis of the deposited data

Results flagged for a closer look

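In 2 of 14 sets of 4 values, 1 library stood apart from its group by Dixon's test at the 95% level, where chance flags about 1 in 20 sets. Agt stood at 15.8 CPM in HFpEF replicate 4, against 9.29 to 9.96 CPM in the other HFpEF libraries. Without that library its log2 fold change was -0.41 (edgeR adjusted p = 0.383). Nr3c2 stood at 30.5 CPM in HFpEF replicate 2, against 38.7 to 40.3 CPM in the others. Without that library Nr3c2 differed by -0.22 on the log2 scale (edgeR adjusted p = 0.150), and the remaining HFpEF libraries all lay below the lowest Control library, at 42.5 CPM. With 4 values the test finds only extreme cases.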

How the results depend on the processing

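Over 16 alternatives (8 settings and 8 libraries left out), Agtr1a, Sgk1 and Nr3c2 kept their direction, and Agt kept it in 15. Agt turned to 0.052 without Control replicate 1, in a range of -0.41 to 0.052 with 1 library left out. Nr3c2 ran from -0.35 to -0.22 and was called in 0 alternatives (lowest adjusted p = 0.0533, DESeq2). DESeq2 called Agtr1a (log2 fold change 1.06, adjusted p = 0.000733) and Sgk1 (0.62, adjusted p = 0.00251), so 2 of the 4 genes against 0, where 7.66% of genes passed. A threshold of 0.1 in edgeR also gave 2, where 943 of the 16313 tested genes passed. With 1 library left out, between 0 and 1 of the 4 were called, Agtr1a ran from 0.93 to 1.24 and Sgk1 from 0.53 to 0.72. Over all tested genes 316 were called, 1248 by DESeq2 (856 higher, 392 lower, against 251 and 65), 943 at a threshold of 0.1 and 22 to 332 with 1 library left out; the cause was not tested. With RLE and upper quartile scaling, the median over genes of the shift in log2 fold change was at most 0.0032 in size.

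With the replicate block 6 genes were called in all and 0 of the 4; Agtr1a then stood at 1.02 on the log2 scale (edgeR adjusted p = 0.141) and Sgk1 at 0.62 (edgeR adjusted p = 0.0888), Nr3c2 at -0.32 and Agt at -0.17. By edgeR's unadjusted p, the block moved Sgk1 from 0.00191 to 0.000344 and Agt from 0.472 to 0.448. It moved Agtr1a from 0.00149 to 0.00474 and Nr3c2 from 0.00966 to 0.0160. Same-numbered libraries deviated together at r of -0.022, -0.056, 0.068 and -0.162, and the same-numbered library was the best match for 2 of 8. The labels name no batch, and these few values cannot show whether same-numbered libraries shared one. Counts of called genes in pathway lists were not run, because symbols could not be matched.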
